A study of Mus musculus with 120 samples.

Results

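Cauda sperm heads were compared with cauda sperm tails by small RNA sequencing in mice. The 7 libraries, 3 of heads and 4 of tails, were taken by their titles from the 120 samples of the series, and they stand in 1 table of 20 libraries of sperm and sperm parts. The cauda is the end of the epididymis, the duct in which sperm mature and are stored after they leave the testis. The mice were fed a control diet and were 8 to 12 weeks old; the labels name neither strain nor genotype. RNA under 40 nt was cut from a gel and cloned, so every row of the table counts fragments or small RNAs and not whole transcripts. Of the heads, 2 libraries (hypotonic heads 1 and 2) came from sperm washed in a hypotonic buffer, and 1 (the detergent head) from sperm washed with 0.01% SDS and 0.005% Triton-X. Of the tails, 3 (hypotonic tails a, b and 1) were washed hypotonically and 1 (the detergent tail) with the detergents. How heads were parted from tails, and whether the libraries came from separate animals, was not given, so p-values measure the spread between these libraries, which may be technical. Libraries of whole cauda sperm (6), testicular sperm heads (3, detergent washed) and testicular sperm tails (2, detergent washed) are given beside them for their levels.

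The sperm head holds the nucleus, in which protamines have replaced most histones, and the acrosome. The tail holds the axoneme with its outer dense fibres and, in the midpiece, the mitochondrial sheath. piRNAs are small RNAs that bind PIWI proteins in developing germ cells, where the pachytene loci, many of them intergenic, give most of them. Fragments of the 5′ ends of mature tRNAs are the best known small RNAs of cauda sperm, and sperm are known to gain them while they pass through the epididymis.

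Library depth ran from 6901600 reads (hypotonic tail b) to 13451323 reads (detergent tail) assigned to a row of the table. In such a library 3 reads make 0.435 and 0.223 CPM (the level of an RNA as its reads scaled to a common library size), below which a level cannot be told from 0; this covers counting error only. The libraries also fell into 2 kinds by their titles. Hypotonic heads 1 and 2 and hypotonic tail 1 had a bare title, while the detergent head, hypotonic tails a and b and the detergent tail had a prefix. The labels do not call this a batch, but 908 of 7176 rows (12.7%) differed between the title styles at an adjusted p under 0.05 with part as a term. Epididymal epithelium mRNAs moved with the title: the 21 genes summed to 93.3, 83.8 and 693 CPM in the heads and to 1228, 664, 91.5 and 788 CPM in the tails, with the 3 bare titles lowest. Values are given throughout in the order hypotonic head 1, hypotonic head 2 and detergent head, and hypotonic tails a, b and 1 and detergent tail, so that the third head and the third tail stand apart from the others of their part in title style. No pair of libraries differed by as little as sampling noise.

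tRNA fragments made up most of the reads of heads, and piRNAs and microRNAs took a larger share of tails (the plot of class shares by library). Of the reads of the 3 heads, 69.1, 71.9 and 75.9% came from tRNAs, against 42.0, 69.2, 46.9 and 43.6% in the 4 tails; hypotonic tail b overlapped the heads. piRNA loci held 5.27, 3.81 and 3.03% of the reads of heads and 23.6, 14.9, 21.6 and 26.6% of those of tails, with no overlap, so the mean share was 4.04% ± 1.14 (SD, n = 3) in heads and 21.7% ± 4.995 (SD, n = 4) in tails. microRNAs took 3.70, 2.03 and 2.55% of heads and 7.33, 7.84, 9.02 and 9.28% of tails, again with no overlap. An exact two-sided permutation test of the mean shares gave p = 0.029 for piRNAs and for microRNAs, the smallest that 35 regroupings allow, and p = 0.086 for tRNAs. After Benjamini-Hochberg adjustment over the 6 classes these were 0.086, 0.086 and 0.13, so no class passed 0.05. rRNA (20.0, 20.4 and 16.997% against 23.6, 6.39, 20.7 and 17.9%) and gene fragments (1.89, 1.83 and 1.503% against 3.34, 1.64, 1.63 and 2.50%) overlapped between the parts. Whole cauda sperm had 5.45 to 13.7% piRNA, above all 3 heads and below all 4 tails. Because shares sum to a whole, more of one class and less of another cannot be told apart, nor can fewer RNA-bearing cells and less RNA per cell.

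**Figure D1:**
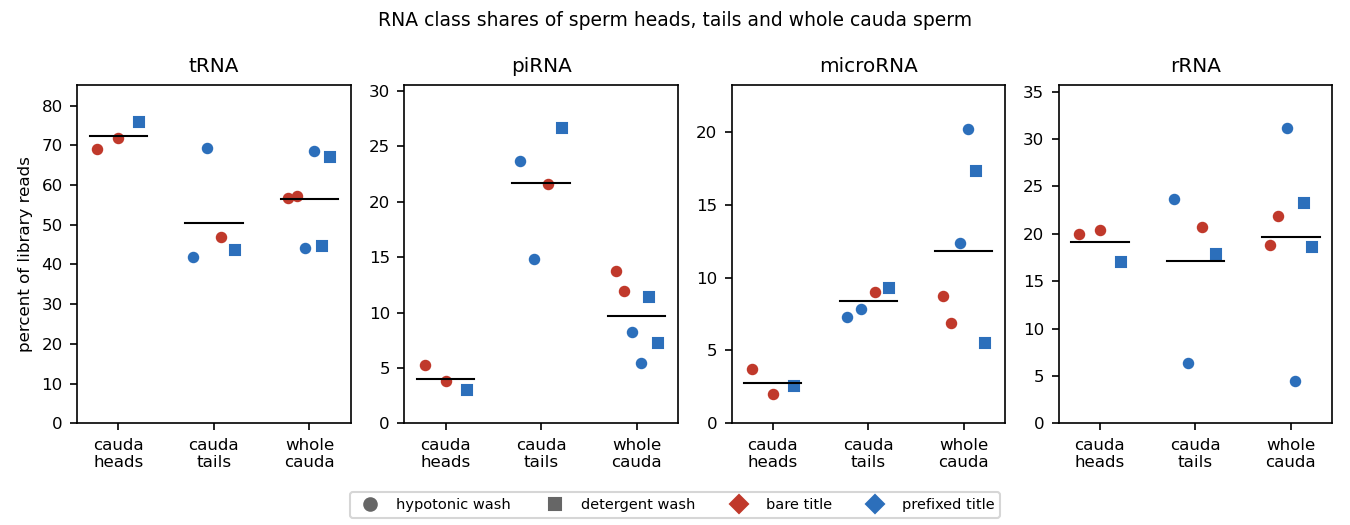
Percent of the reads of each library (y axis) that came from tRNAs, piRNAs, microRNAs and rRNA, by part; each point is 1 library, its shape the wash and its colour the title style, and the bars are means of 3 heads, 4 tails and 6 whole sperm libraries. The piRNA points of heads lie between 3.03 and 5.27%, below all 4 tails.

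Row by row, 7176 RNAs were tested with edgeR's quasi-likelihood test with the wash as a term, and p-values were adjusted over all of them (Benjamini-Hochberg). With TMM scaling 1612 rows (22.5%) were higher and 833 (11.6%) lower in heads. Scaling by library totals alone moved the median log2 difference over all rows from -0.02 to -0.94 and the split to 892 higher (12.4%) and 1938 lower (27%); with the title style in place of the wash it was 1563 (21.8%) and 1091 (15.2%). A row is therefore described below as holding in 3 fits only where it passed in the same direction with TMM, with library totals and with the title style in place of the wash. This was the case for 869 rows (12.1%) higher and 776 (10.8%) lower in heads. Without hypotonic head 2 the TMM counts fell to 1002 higher and 294 lower, and without hypotonic head 1 the lower count fell to 498. Each log2 difference is heads minus tails with TMM scaling unless another scaling is named.

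The tail side was led by piRNAs of intergenic loci, which are named by their chromosome band. Of 217 such rows tested, 195 were lower and 1 higher in heads, with a median of -1.90 and quartiles of -1.98 and -1.72, beside a median of -0.02 over all rows. The same 195 were lower in all 3 fits. The most abundant locus, 18-qE1-36451.1, stood at 1910.3, 1221 and 1124 CPM in heads and 11149.6, 6785, 9799.9 and 11895 CPM in tails, so that every tail lay above every head (log2 -2.002 ± 0.50 (SE), adjusted p = 0.0036). Locus 9-qC-31469.1 gave 1851, 1175 and 1032 CPM in heads and 9800.4, 5996, 8688 and 10704 CPM in tails (log2 -1.90 ± 0.49 (SE), adjusted p = 0.005). Locus 1-qD-2017.1 showed the largest fall among loci averaging at least 100 CPM in tails, with 36.2, 16.9 and 27.2 CPM against 428, 236, 212 and 341 CPM (log2 -2.66 ± 0.48 (SE), adjusted p = 2.0e-04). Locus 17-qA3.3-27363.1, also among the 5 most abundant, differed less (2186, 1225 and 1109.8 CPM against 7959, 4934, 7266 and 9087 CPM, log2 -1.49 ± 0.49 (SE), adjusted p = 0.023). Without hypotonic head 2 the calls of 18-qE1-36451.1, 9-qC-31469.1 and 17-qA3.3-27363.1 were lost, with the highest adjusted p over libraries left out at 0.05004, 0.06 and 0.16; the last 2 were also lost without the detergent head or the detergent tail, and 17-qA3.3-27363.1 without hypotonic head 1. Locus 1-qD-2017.1 was called whichever library was left out (log2 -2.88 to -2.30).

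piRNAs of genic loci, whose names begin with pi- and the gene they overlap, had calls in both directions. Of 240 rows tested 14 (5.83%) were higher and 35 (14.6%) lower in heads, beside 22.5% and 11.6% of all rows, and their median was 0.08 (quartiles -0.58 and 0.53). Genic loci held 15.4, 25.3 and 17.2% of the piRNA reads of heads but 5.74, 5.12, 5.68 and 5.98% of those of tails, and 7.02 to 13.1% in the 6 whole cauda sperm libraries. In testicular sperm the genic part was 3.89 to 4.06% in heads and 3.602 to 3.77% in tails. The shares count both pi-Ankrd11.1 and pi-Ankrd11.2, rows of 1 locus that may share reads. These stood at 1429, 2662 and 345 CPM and at 1537, 2595 and 345 CPM in cauda heads. All 240 genic rows tested summed to 8089, 9630 and 5213 CPM there, so this locus gave part of the head share. Shares without it were not taken. With each row scaled to the total of its own RNA class, 182 of the 240 genic rows were higher in heads and none lower, beside 18.6% of all rows higher in that fit; 17 of 217 intergenic rows were higher and 1 lower. Most piRNA reads came from intergenic loci, which were lower in heads, so a genic row of unchanged level rises in this fit. The counts therefore add nothing to the shares above.

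One genic locus stood apart. The rows pi-Ankrd11.1 and pi-Ankrd11.2, at the gene of the chromatin regulator Ankrd11, carried nearly equal values and may share reads, so they count as 1 locus. pi-Ankrd11.1 reached 1429, 2662 and 345 CPM in heads and 114, 41.1, 140.5 and 101 CPM in tails. Every head lay above every tail, and the detergent head was the lowest head. The log2 difference was 4.498 ± 0.59 (SE) with an adjusted p of 5.6e-06, it held in all 3 fits, and it ranged from 3.99 to 5.08 when single libraries were left out. Whole cauda sperm held 126 to 1455 CPM, and testicular heads and tails held 51.0, 56.8 and 42.3 CPM and 73.3 and 33.9 CPM. A second genic locus, pi-D730040F13Rik.1, was higher at 215, 215 and 197 CPM against 139.8, 50.0, 78.7 and 114 CPM (log2 2.03 ± 0.42 (SE), adjusted p = 8.2e-04).

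**Figure D2:**
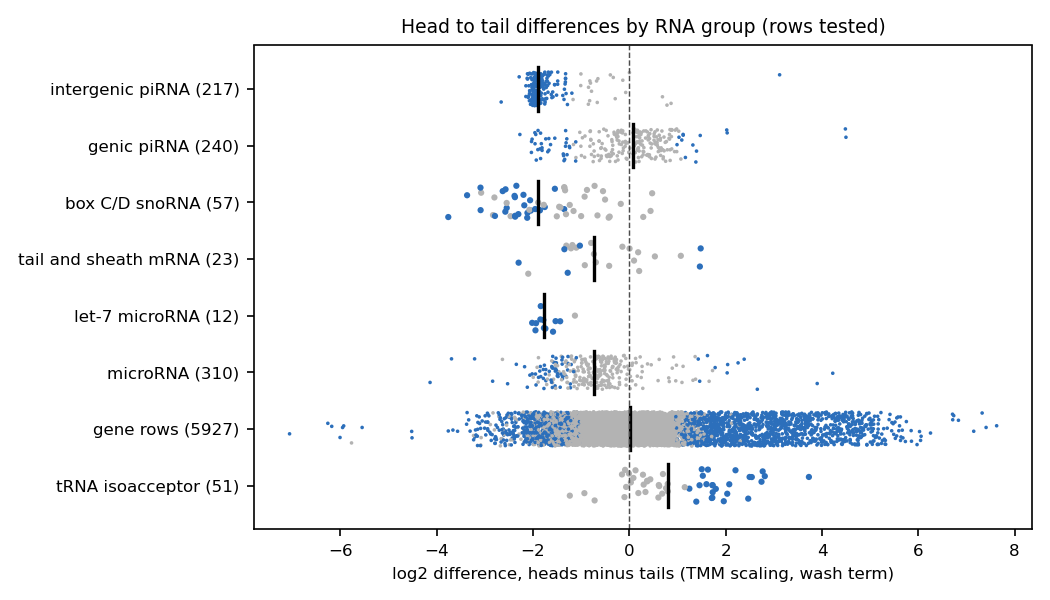
Log2 difference of heads minus tails (x axis, TMM scaling) for each row tested, by RNA group with the number of rows in brackets; blue points passed an adjusted p of 0.05, grey points did not, and black bars are medians; the let-7, snoRNA and tail rows are also among the microRNA and gene rows. Intergenic piRNAs gather at a median of -1.90 and tRNA isoacceptors at 0.80.

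Among tRNA fragments, summed over the gene copies of each isoacceptor because near-identical copies share reads, 24 of 51 isoacceptors were higher and none lower in heads (median 0.80), beside 21.9% higher and 10.9% lower over the 6827 rows of that fit. By library totals 13 were higher and 5 lower, beside 11.3% and 28.2% of all rows, and 10 were higher and none lower in all 3 fits, beside 11.2% and 10.3%. Cys-GCA, which reads cysteine codons, differed most, with 1620.0, 1519.9 and 1064 CPM in heads and 197, 188, 132 and 268 CPM in tails. The lowest head was well above the highest tail in both title styles and both washes, the log2 difference was 3.73 ± 0.40 (SE) with an adjusted p of 7.9e-08, and library totals gave 2.85. Whole cauda sperm lay between, at 369 to 1030.3 CPM. The proline isoacceptors rose together: Pro-AGG stood at 1133, 761 and 157 CPM against 126, 45.2, 292 and 123 CPM (log2 2.81 ± 0.61 (SE), adjusted p = 0.003), and Pro-TGG and Pro-CGG differed by 2.77 ± 0.50 (SE) and 2.74 ± 0.50 (SE) on the log2 scale. Within bare titles the hypotonic tail 1 value of Pro-AGG was 292 CPM, above the detergent head, so the proline rows overlapped between parts across title styles but not within them. His-GTG was higher at 14127, 22335 and 5957 CPM against 2839, 3646, 7664 and 2558 CPM (log2 2.54 ± 0.47 (SE), adjusted p = 1.7e-04); here too hypotonic tail 1 lay above the detergent head. Met-CAT and Gln-CTG, named after their values were seen, were higher by 2.47 ± 0.50 (SE) and 2.07 ± 0.44 (SE) on the log2 scale.

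The make-up of the tRNA reads moved with the title style (the plot of isoacceptor make-up). With part as a term, Val-CAC and Glu-CTC differed between the title styles (adjusted p = 0.04 and 0.044), while Gly-GCC and Cys-GCA did not pass (adjusted p = 0.63 and 0.80). Val-CAC gave 11.4, 10.4 and 14.9% of the tRNA reads of the 3 bare titles, and 36.8, 38.8, 36.6 and 37.7% of those of the detergent head, hypotonic tails a and b and the detergent tail. Glu-CTC ran the other way, with 30.0, 30.7 and 29.1% in bare titles and 11.7 to 20.7% in prefixed ones. Gly-GCC, the most abundant, stood at 272997, 290722 and 211574 CPM in heads and 78985, 210551, 168430.0 and 80873 CPM in tails. Heads were above tails within each title style, but detergent head and hypotonic tail b differed little. Its log2 difference of 1.80 ± 0.51 (SE) (adjusted p = 0.0086) lost its call with the title style as a term (1.38, adjusted p = 0.16), and also without the detergent head or the detergent tail (highest adjusted p 0.13). Gly-CCC lost its call in the same 3 cases (1.71 ± 0.48 (SE), adjusted p = 0.0069, and 1.31, adjusted p = 0.16). The call of Glu-CTC (1.53 ± 0.44 (SE), adjusted p = 0.008) held with the title style (1.00, adjusted p = 0.033) but not with library totals (0.73, adjusted p = 0.12), nor without hypotonic head 2, the detergent head or the detergent tail (highest adjusted p 0.067). Val-CAC and Val-AAC did not pass (0.28 ± 0.60 (SE) and 0.60 ± 0.52 (SE)); their direction turned with library totals (-0.54 and -0.26), and Val-AAC was called higher in heads with the title style (1.23, adjusted p = 0.0086).

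**Figure D3:**
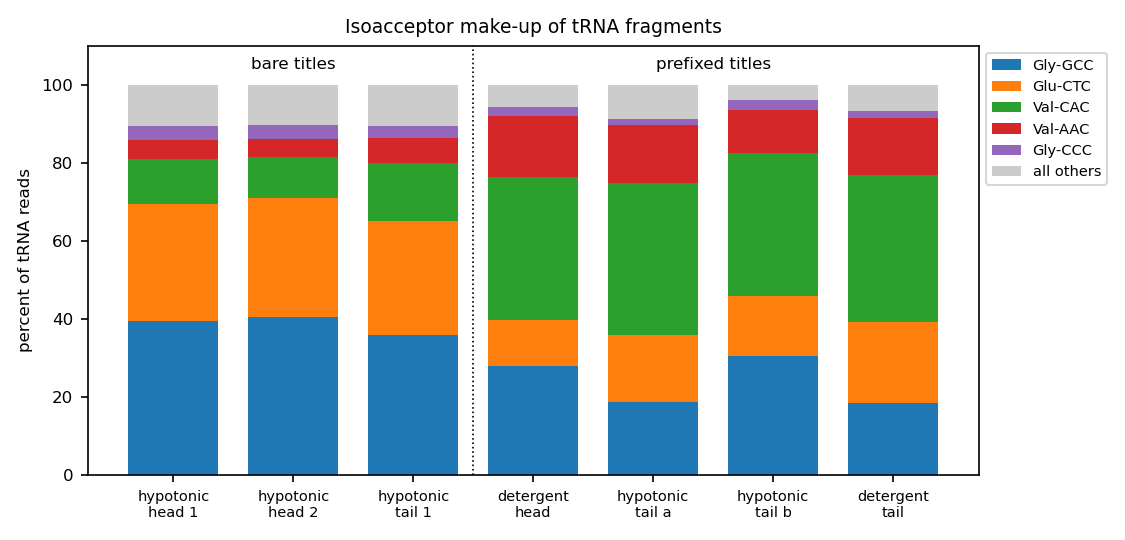
Percent of the tRNA reads of each library (y axis) given by the 5 most abundant isoacceptors and all others, with the 3 bare titles left and the 4 prefixed titles right of the dotted line. Val-CAC takes 10.4 to 14.9% in bare titles and 36.6 to 38.8% in prefixed ones, in heads and tails alike.

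One tRNA row lay on the mitochondrial chromosome, a Leu-TAA copy, and was named for that after its values were seen. It stood at 30.6, 27.7 and 27.5 CPM in heads and 340.5, 51.1, 154 and 123 CPM in tails. All 4 tails were above all 3 heads (log2 -1.502 ± 0.49 (SE), adjusted p = 0.023), but the call was lost without hypotonic head 1 or hypotonic head 2 (highest adjusted p 0.16). The 15 mitochondrial mRNAs and rRNAs listed as tail markers were not analysed here. Of nuclear isoacceptors, Gly-TCC was lower in heads by library totals (-2.12, adjusted p = 3.5e-05) and with the title style (-1.46, adjusted p = 0.0033) but not with TMM and the wash (-1.24 ± 0.49 (SE), adjusted p = 0.062).

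microRNAs lay on the tail side as a class, with a median log2 difference of -0.73 over 310 rows. Of these 11 (3.55%) were higher and 58 (18.7%) lower, beside 22.5% and 11.6% of all rows. By library totals 193 were lower, beside 1938 of all 7176 rows. The let-7 family, which represses growth and stem cell genes in many tissues, was the clearest group. Of its 12 rows 11 were lower in heads (91.7%, beside 18.7% of microRNA rows; median -1.78), 12 by library totals and 10 with the title style. Summed, they gave 1101, 633 and 1365 CPM in heads and 4985, 5624, 4109 and 7618 CPM in tails. Gene copies of let-7a, let-7c and let-7f are separate rows with close values, such as Mirlet7a-1 and Mirlet7a-2 (101, 60.7 and 188 and 108, 58.9 and 186 CPM in heads). Such copies may share reads, so the 12 rows are not 12 separate members of the family. The mature 5p sequences of 3 of its abundant members are shown because they share the seed by which targets are paired (bases 2 to 8, capitals) and differ by single bases outside it, which makes their rows hard to part by sequence alone; sequences are from RefSeq on GRCm38.p6.
let-7a-5p (chr13:48538239-48538260, minus strand, copy 1): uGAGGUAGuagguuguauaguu
let-7f-5p (chr13:48537889-48537910, minus strand, copy 1): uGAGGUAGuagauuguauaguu
let-7c-5p (chr16:77599672-77599693, plus strand, copy 1): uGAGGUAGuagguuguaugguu
Counted from the 5′ end of let-7a, let-7f carries G12A and let-7c carries A19G. Mirlet7f-1 stood at 143, 88.9 and 189 CPM in heads and 746, 1023, 763 and 1017 CPM in tails, with no overlap (log2 -2.02 ± 0.53 (SE), adjusted p = 0.0053). Mirlet7c-1 showed 111, 62.7 and 91.1 CPM against 476, 588, 444 and 586 CPM (log2 -1.85 ± 0.49 (SE), adjusted p = 0.006), and Mirlet7a-1 101, 60.7 and 188 CPM against 589.7, 483, 295 and 1218 CPM (log2 -1.74 ± 0.47 (SE), adjusted p = 0.0063). With each row scaled to all microRNA reads of its library 7 of the 12 rows were still lower, beside 12 of 310 microRNA rows and 16.2% of all rows lower in that fit. With the title style in that fit 5 were lower, beside 12 of 310 microRNA rows. The TMM calls of Mirlet7f-1, Mirlet7c-1 and Mirlet7a-1 were each lost without hypotonic head 2 (adjusted p 0.082, 0.084 and 0.086), with the log2 differences then between -1.64 and -1.45. Whole cauda sperm held 589 to 2477 CPM of Mirlet7f-1. Testicular heads held 104, 182 and 88.3 CPM and testicular tails 389 and 301 CPM.

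The 2 most abundant microRNAs, Mir10b and Mir10a from Hox gene clusters, were also lower in heads. Their mature sequences share a seed and differ by U12A, counted from the 5′ end of miR-10a.
miR-10a-5p (chr11:96317186-96317208, plus strand): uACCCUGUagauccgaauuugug
miR-10b-5p (chr2:74726074-74726096, plus strand): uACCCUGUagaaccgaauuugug
Mir10b gave 2708, 1579.8 and 3879 CPM in heads and 12403, 22247, 11339.6 and 10077 CPM in tails (log2 -1.74 ± 0.65 (SE), adjusted p = 0.046), and Mir10a gave 1990.4, 1141 and 2904 CPM and 10836, 16446, 7534 and 7285 CPM (log2 -1.73 ± 0.65 (SE), adjusted p = 0.045). The highest head lay below the lowest tail for both. Both calls were near the threshold and were lost without hypotonic head 1, hypotonic head 2, hypotonic tail b or hypotonic tail 1 (highest adjusted p 0.35 and 0.35). Of the 11 Hox cluster, mir-99, mir-100 and mir-125 rows 5 were lower (45.5%, beside 18.7% of microRNA rows) and none higher in heads, the others being Mir196a-2 (-1.63), Mir125a (-1.54) and Mir125b-1 (-1.23) (median -1.10). Of the 5 epithelial mir-200 rows Mir200b (-1.496), Mir200c (-1.52) and Mir429 were lower (60%, beside 18.7% of microRNA rows; median -1.496), the last with 28.2, 11.9 and 39.1 CPM against 102, 303, 104 and 129 CPM (log2 -2.07 ± 0.73 (SE), adjusted p = 0.038). Mir200a and Mir141 did not pass (adjusted p = 0.15 and 0.39). Mir141, the most abundant of the 5, overlapped between the parts, at 149, 93.7 and 32.1 CPM against 110, 142, 1388 and 62.4 CPM. The call of Mir429 was lost without hypotonic head 1, hypotonic head 2 or hypotonic tail b, its highest library (highest adjusted p 0.25), and with the title style (-1.79, adjusted p = 0.068). Among the 40 microRNA rows lower in heads in all 3 fits, 25 had a whole cauda sperm median above the means of both heads and tails, whereas all 230 piRNA rows of that kind had one between them. Both sets were chosen for a gap between heads and tails, so a median inside it was likely in advance.

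Germ cell microRNAs were not called with TMM. Mir34c, made in spermatocytes and spermatids, stood at 4521, 2627 and 1745 CPM in heads and 4659, 2714, 7211 and 4921 CPM in tails, with a log2 difference of 0.01 ± 0.50 (SE) (adjusted p = 0.99) whose sign turned with library totals (-0.74) and the title style (-0.43). Scaled to all microRNA reads it was higher in heads (0.88, adjusted p = 0.046), as was its relative Mir449a (0.83, adjusted p = 0.045). The mature miR-449a-5p is given to set its seed beside that of let-7.
miR-449a-5p (chr13:113037549-113037570, plus strand): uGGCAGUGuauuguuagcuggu
Of the 20 X-linked testis microRNA rows and the 10 mir-17-92 rows tested none passed with TMM in either direction (medians -0.59 and -0.33), while library totals called 13 and 4 of them lower, beside 193 of all 310 microRNA rows, and the title style 1 and 0, beside 82. Mir22 (-0.74 ± 0.49 (SE)), Mir191 (-0.04 ± 0.47 (SE)) and the smooth muscle microRNA Mir143 (-1.16 ± 0.69 (SE)) did not pass with TMM. Of 7 blood microRNA rows Mir150 was lower (-1.66) and none higher, which is 14.3% lower beside 18.7% of microRNA rows.

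A few annotated microRNAs of uncertain standing moved further. Mir3535 was at 3.49, 3.11 and 8.42 CPM in heads and 115, 221, 22.6 and 145 CPM in tails (log2 -4.14 ± 0.83 (SE), adjusted p = 0.0015), with the lowest tail, hypotonic tail 1, in the bare titles. Mir5103 was the 1 microRNA averaging at least 100 CPM in heads that rose, at 109, 39.8 and 254 CPM against 20.4, 18.7, 31.7 and 79.8 CPM, with the detergent head highest and 1 head below the highest tail (log2 2.38 ± 0.50 (SE), adjusted p = 0.001). Both were called in all 3 fits. The mature sequence of miR-5103 is shown so that it can be compared with other RNAs of these libraries.
miR-5103 (chr1:34433130-34433149, minus strand): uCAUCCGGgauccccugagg

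Fragments of mRNAs and other genes made up 1.89% or less of each head library, but they held the largest differences toward heads. Of 5927 gene rows 1352 (22.8%) were higher and 533 (8.99%) lower in heads, beside 22.5% and 11.6% of all rows. Of these, 745 higher and 495 lower rows held in all 3 fits, beside 869 and 776 of all 7176 rows. Plb1, the gene of a membrane phospholipase, rose most among rows averaging at least 100 CPM in heads. It stood at 167, 168 and 57.5 CPM in heads and 8.27, 2.90, 7.62 and 3.27 CPM in tails, so the lowest head was several times the highest tail (log2 5.41 ± 0.50 (SE), adjusted p = 1.7e-07). Eif4g1, a scaffold of the translation initiation complex, showed 213, 213 and 66.8 CPM against 16.2, 4.49, 11.7 and 9.52 CPM (log2 4.76 ± 0.49 (SE), adjusted p = 3.5e-07). Named after their values were seen, the kinesin Kif1a (68.9, 62.6 and 17.2 CPM against 2.79, 1.16, 2.54 and 1.64 CPM, log2 5.32 ± 0.49 (SE)), the guanine nucleotide exchange factor Trio (77.1, 83.9 and 21.3 CPM against 4.55, 1.88, 5.35 and 3.57 CPM, log2 4.66 ± 0.51 (SE)) and the clock gene Per1 (76.5, 63.3 and 21.2 CPM against 8.27, 1.01, 4.26 and 3.94 CPM, log2 4.47 ± 0.51 (SE)) had both hypotonic heads highest and the detergent head above every tail, with adjusted p-values of 1.7e-07, 5.5e-07 and 9.9e-07. The calcium channel Ryr1 and the Arf regulator Git1 differed by 4.39 ± 0.51 (SE) and 3.51 ± 0.48 (SE) on the log2 scale. Each of these 7 genes was called whichever library was left out.

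In all of these genes the 2 hypotonic heads, both with bare titles, were close to each other and the detergent head lay between them and the tails. The 745 rows summed to 8574, 8486 and 2722 CPM in heads and to 1220.2, 429.8, 835 and 826 CPM in tails; since the rows were chosen on these libraries this is a description. In libraries that the choice did not use, they summed to 937 to 5329 CPM in whole cauda sperm, 454 to 538 CPM in testicular heads and 424 to 686 CPM in testicular tails. For 737 of the 745 the whole cauda sperm median lay between the means of tails and heads, as it did for 467 of the 495 gene rows lower in heads in all 3 fits. Rows chosen for a wide gap between these means are likely to hold such a median, so these counts too are a description. Plb1 was at 20.4 to 103 CPM in whole cauda sperm and at 1.54, 0.764 and 1.06 CPM in testicular heads (the plot of levels in single libraries).

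**Figure D4:**
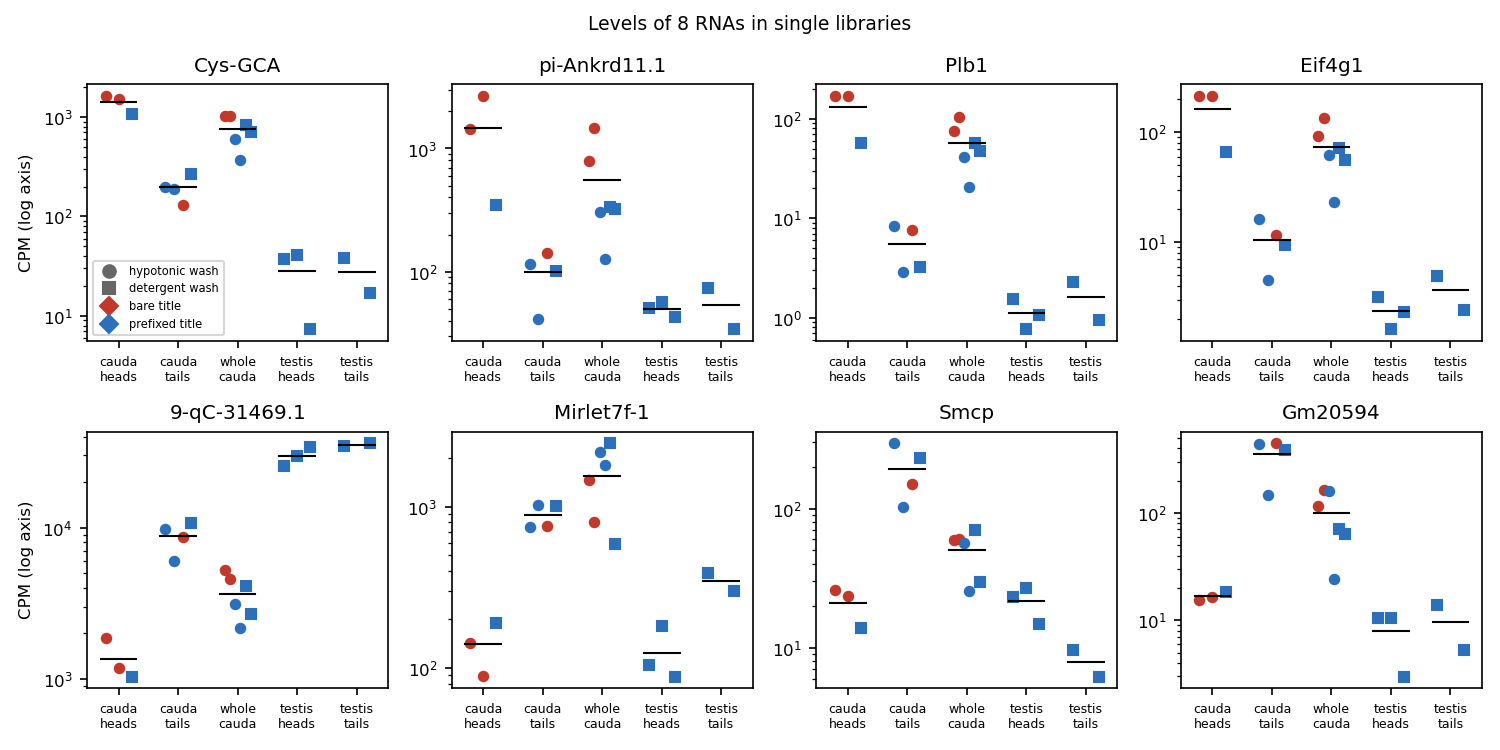
Level of 8 RNAs in single libraries (y axis, CPM, log axis) of cauda heads, cauda tails, whole cauda sperm and testicular heads and tails; shape is the wash, colour the title style, and the bars are group means. Plb1 is at 57.5 CPM or more in the 3 cauda heads and at 8.27 CPM or less in cauda tails, while Smcp and Gm20594 show the opposite order.

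The genes higher in heads had transcripts richer in G and C. Each gene row was matched by symbol to its longest transcript in GENCODE vM21, with a match for 5697 of 5927 rows. Over all matched rows the median log2 difference went from -0.66 for the 303 genes under 40% GC to -0.01 for the 1285 genes of 48 to 52% and 1.35 for the 217 genes over 60%. The share of genes called higher rose over the same bins from 5.94% to 17.8% and 50.7%, beside 22.8% of all gene rows. The order of the bins was kept with library totals (-1.62 to 0.41) and with the title style (-0.26 to 1.13). Across the 5697 genes, which are not independent replicates and share their libraries, Spearman's rho between GC content and the log2 difference was 0.415, and that between transcript length and the difference was 0.04997. The 745 rows higher in all 3 fits had a median GC of 54.7% and the 495 lower rows one of 47.4%, against 49.4% for all.

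Seen library by library, the slope differed within parts as well. In hypotonic heads 1 and 2 the median level of a gene went from 0.487 and 0.409 CPM in the lowest GC bin to 2.03 and 1.80 CPM in the highest, but in the detergent head it went only from 0.920 to 1.05 CPM. In tails it went from 2.27 to 1.65 CPM (hypotonic a), 1.01 to 0.580 CPM (hypotonic b), 0.817 to 0.998 CPM (hypotonic 1) and 1.93 to 1.04 CPM (detergent). Title style thus moved with the slope too, and its part in the result was not tested beyond the fit with a title style term.

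**Figure D5:**
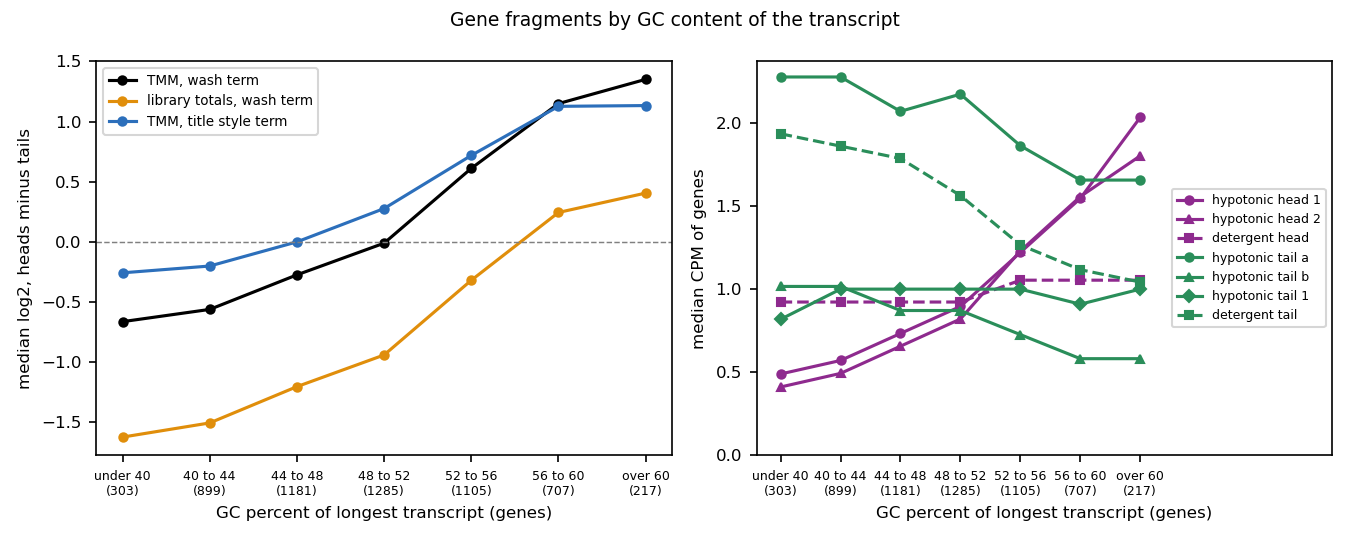
Left, median log2 difference of heads minus tails (y axis) of gene rows by GC content of the longest transcript (x axis, number of genes in brackets) in 3 fits; right, median level of the same genes (y axis, CPM) in each library. Every fit goes up with GC content, and the steepest libraries are hypotonic heads 1 and 2.

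Among mRNAs of tail proteins, 3 abundant ones were lower in heads and other members went both ways. Of 32 mRNAs of tail and mitochondrial sheath proteins 23 passed the filter on low counts, of which 4 were lower and 2 higher in heads (median -0.74); library totals called 12 lower and none higher. These are 8.7% higher and 17.4% lower, beside 22.8% and 8.99% of gene rows, and by library totals 1426 of 5927 gene rows were lower. Summed, Smcp, Odf1 and Oaz3 gave 83.3, 86.0 and 38 CPM in heads and 628, 219.7, 312 and 478 CPM in tails, without overlap, while the other 29 gave 84.6, 76.8 and 32.0 CPM in heads and 134, 55.1, 102 and 88.5 CPM in tails, which overlapped. Smcp, a protein of the mitochondrial capsule, stood at 25.8, 23.7 and 13.8 CPM against 294, 103, 149.9 and 229 CPM (log2 -2.30 ± 0.45 (SE), adjusted p = 5.5e-04). Odf1, of the outer dense fibres, stood at 44.4, 45.7 and 18.5 CPM against 249, 86.5, 121 and 186 CPM (log2 -1.28 ± 0.44 (SE), adjusted p = 0.031), and Oaz3, a spermatid antizyme, at 13.0, 16.6 and 5.65 CPM against 84.6, 30.6, 40.3 and 63.4 CPM (log2 -1.35 ± 0.44 (SE), adjusted p = 0.022). The calls of Odf1 and Oaz3 were lost without either detergent library or without hypotonic head 1 or 2 (highest adjusted p 0.24 and 0.19), while Smcp was called in each case. The fourth lower row was Dnah8, an axonemal dynein (-1.03), and the higher rows were Akap3, of the fibrous sheath (1.48), and Hook1, of the spermatid manchette (1.46); these were named after their values were seen, and neither rise held in all 3 fits. Odf2 did not pass (1.07 ± 0.42 (SE), adjusted p = 0.057). Head proteins were looked at in the same way. Of 6 protamine and transition protein rows tested none was called, and Prm2, a protamine of the packed nucleus, stood at 30.3, 24.4 and 6.84 CPM in heads and 58.1, 17.1, 45.1 and 33.3 CPM in tails (log2 -0.16 ± 0.44 (SE), adjusted p = 0.82). Of 5 acrosome rows tested the protease gene Acr was higher (1.54, 1.64 and 0.394 CPM against 0.724, 0.145, 0.544 and 0.446 CPM, log2 2.11 ± 0.54 (SE), adjusted p = 0.0043), though not in all 3 fits, and 1 was lower. Each is 20% of the rows, beside 22.8% of gene rows higher and 8.99% lower. In the detergent head Acr was at the level of 3 reads (0.394 CPM), below every tail but hypotonic tail b. Hypotonic tail b lay under its own level of 3 reads (0.435 CPM). The lower was Crisp2, whose protein sits in the acrosome and the tail (5.20, 4.25 and 2.24 CPM against 35.3, 14.3, 19.4 and 38.4 CPM, log2 -1.89 ± 0.43 (SE), adjusted p = 0.0017).

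Box C/D snoRNAs that passed with TMM and the wash as a term were all lower in heads. These RNAs guide the methylation of rRNA in the nucleolus. Of 57 rows tested 27 were lower and none higher (median -1.89), beside 8.99% of gene rows lower. By library totals 49 were lower, and 21 were lower in all 3 fits. With the title style 21 were lower and 2 higher, beside 1339 of 5927 gene rows higher. The 2 higher rows were Snord83b (1.79, adjusted p = 0.012) and Snord12 (1.05, adjusted p = 0.045). The 68 box C/D rows summed to 274, 169.8 and 575 CPM in heads and 2999.8, 3353, 989 and 1758 CPM in tails. Sequences of 3 of them are shown in full from GENCODE vM21 (GRCm38) so that the fragments can be placed; capitals mark the letters TGATGA of the C box within the first 25 bases and CTGA of the D box within the last 15, read on the transcript strand, where 71.1% and 93.8% of the 97 box C/D transcripts of GENCODE hold them.
Snord123 (chr15:32241853-32241923, minus strand): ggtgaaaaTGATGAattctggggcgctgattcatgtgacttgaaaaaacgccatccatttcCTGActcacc
Snord99 (chr4:132310691-132310764, plus strand): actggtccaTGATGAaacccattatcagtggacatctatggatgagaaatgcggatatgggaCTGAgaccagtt
Snord104 (chr11:106500993-106501062, plus strand): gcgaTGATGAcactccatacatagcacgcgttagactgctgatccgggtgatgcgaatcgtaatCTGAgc
Snord123 stood at 5.85, 4.34 and 24.1 CPM in heads and 184, 163, 34.0 and 103 CPM in tails (log2 -3.09 ± 0.78 (SE), adjusted p = 0.0055), Snord99 at 10.9, 5.40 and 16.4 CPM against 82.9, 201, 42.0 and 112 CPM (log2 -2.79 ± 0.71 (SE), adjusted p = 0.0059) and Snord104 at 42.4, 28.3 and 61.1 CPM against 358, 427, 147 and 257 CPM (log2 -2.06 ± 0.57 (SE), adjusted p = 0.0076). All 3 were lowest among tails in hypotonic tail 1 and still above every head. Without hypotonic head 2 none of the 3 was called, and without hypotonic head 1 Snord123 and Snord104 were not (highest adjusted p 0.076, 0.061 and 0.11); the same held for Snord43 without hypotonic head 2 (-2.38 ± 0.60 (SE) with all libraries). Snord2, the most abundant, missed the threshold (35.2, 26.8 and 92.4 CPM against 484, 866, 139 and 211 CPM, log2 -2.55 ± 0.98 (SE), adjusted p = 0.066). Of 11 box H/ACA rows tested Snora68, Snora21 and Snora70 were lower (-1.83, -2.09 and -2.62) and none higher, which is 27.3% lower beside 8.99% of gene rows. None of the 3 was called with the title style. In heads 3 reads make 0.244, 0.245 and 0.394 CPM. Snora70 lay under this in every head (0.163, 0 and 0.131 CPM) and Snora21 near it (0.325, 0.245 and 0.263 CPM), so the sizes of these 2 falls are not resolved.

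Other noncoding rows showed clear gaps between the parts. Rmrp, the RNA of the RNase MRP enzyme, stood at 32.5, 53.5 and 46.3 CPM in heads and 616, 501, 170.1 and 489.8 CPM in tails (log2 -2.48 ± 0.52 (SE), adjusted p = 9.9e-04). The predicted gene Gm20594 was at 15.3, 16.4 and 18.3 CPM against 433, 146, 443 and 388 CPM, the largest fall among gene rows averaging at least 100 CPM in tails (log2 -3.57 ± 0.53 (SE), adjusted p = 2.4e-05). Gm3893 stood at 83.2, 56.8 and 34.5 CPM against 502, 260.2, 479.6 and 419 CPM (log2 -2.05 ± 0.46 (SE), adjusted p = 0.0018). These 3 were called in all 3 fits and whichever library was left out. Among rRNA rows only the 5.8S row was called higher in heads (21216, 14564 and 8182 CPM against 11154, 4491, 10303 and 11792 CPM, log2 1.43 ± 0.49 (SE), adjusted p = 0.03), and neither library totals (0.61) nor the title style (1.03) kept that call; it was also lost without any 1 of hypotonic heads 1 and 2, the detergent head, hypotonic tail b and the detergent tail. Of 77 repeat rows 8 (10.4%) were higher and 8 (10.4%) lower, beside 22.5% and 11.6% of all rows; the most abundant, RLTR4I_MM:ERV1, did not pass (-0.80 ± 0.61 (SE), adjusted p = 0.34).

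RNAs of other cells were looked for in the same libraries. Crisp1, a secretory product of the epididymal epithelium, stood at 49.7, 49.8 and 329 CPM in heads and 888, 522, 57.8 and 557 CPM in tails, and Cd52, a surface protein that the same epithelium passes to sperm, at 19.5, 14.8 and 286 CPM and 227, 61.4, 12.7 and 116 CPM. The 3 bare titles were lowest for both. Neither passed with TMM (-1.66 ± 0.85 (SE) and -0.48 ± 0.99 (SE)), both were lower in heads by library totals (-2.58 and -1.53, adjusted p = 3.5e-05 and 0.039), and with the title style Crisp1 did not pass (0.06) while Cd52 was higher in heads (1.58, adjusted p = 0.0023). Of the 21 epithelial genes 8 were tested and none called with TMM, beside 22.8% of gene rows higher and 8.99% lower. Of 4 blood mRNA rows tested Cd74 was higher (0.98), though not in all 3 fits, which is 25% beside those 22.8%. The 2 Sertoli and Leydig rows tested were not called. Library totals called 5 epithelial, 1 blood and 2 Sertoli and Leydig rows lower and none higher, beside 1426 of 5927 gene rows lower. With the title style 2 epithelial and 2 blood rows were higher and none lower, beside 1339 of 5927 gene rows higher. Blood mRNAs summed to 7.47, 6.14 and 9.07 CPM in heads and 16.1, 6.23, 5.53 and 11.2 CPM in tails, and Sertoli and Leydig cell mRNAs to 7.88, 6.96 and 21.0 and 47.4, 17.5, 9.16 and 35.3 CPM. The 7 blood microRNAs had another order, with hypotonic tail 1 highest. They summed to 267, 91.8 and 125 CPM in heads and 330, 193, 716 and 331 CPM in tails. Their part in the differences above was not tested.

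Whether the wash changed the head to tail difference was asked with an interaction term, with 1 detergent head and 1 detergent tail assumed to vary like the others. edgeR called 0 of 9098 rows (0%), with 715 at an unadjusted p under 0.05, and DESeq2 also called 0, with 212 at that level. Without hypotonic tail 1, however, edgeR called 23 higher and 10 lower; without hypotonic head 1 it called 2 and 1, and without hypotonic head 2 it called 5 and 0.

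The head to tail difference was also set against that of testicular sperm, whose libraries were all detergent washed and prefixed, in 1 fit of 12 libraries with an interaction term. Of 8410 rows 1131 (13.4%) had a higher and 319 (3.79%) a lower difference in cauda than in testis sperm; library totals gave 523 (6.22%) and 858 (10.2%), so the split of this fit rests on the scaling. Single libraries moved both counts: without testicular tail a they were 234 and 60, without hypotonic head 1 554 and 589, and without hypotonic head 2 746 and 65. The lower count alone was 57 without testicular tail b, 110 without testicular head b, 125 without testicular head c, 534 without the detergent head and 542 without the detergent tail. Smcp turned round: testicular heads held 23.0, 26.8 and 14.8 CPM and testicular tails 9.68 and 6.20 CPM, against lower heads in the cauda (log2 -3.62 ± 0.59 (SE), adjusted p = 2.4e-04). Gm20594 was at 10.6, 10.4 and 2.98 CPM and 13.8 and 5.33 CPM in testicular heads and tails (log2 -3.21 ± 0.76 (SE), adjusted p = 0.0058). Of intergenic piRNA rows 141 of 217 had a lower difference in the cauda (median -1.49, beside 0.28 over all rows), and 9-qC-31469.1 stood at 25609, 29943 and 34273 CPM in testicular heads and 34394 and 36043 CPM in testicular tails (log2 -1.504 ± 0.38 (SE), adjusted p = 0.0096). For Plb1 (6.08 ± 0.66 (SE), adjusted p = 1.6e-05) and pi-Ankrd11.1 (4.72 ± 0.73 (SE), adjusted p = 3.1e-04) the difference was larger in the cauda. The let-7 rows gave no call here: Mirlet7f-1 differed by -0.40 ± 0.61 (SE) (adjusted p = 0.73), which does not show that the 2 differences were alike.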

How the data were processed

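The authors deposited a table of estimated counts of reads per RNA, not scaled, made from gel-cut small RNA libraries, per the file headers and the labels' protocols, for 20 libraries of sperm and sperm parts; by the values, rRNA, tRNA, microRNA, piRNA and repeat rows are whole numbers and gene rows need not be. The genome build was mm10, per the submitters' processing notes; no label or header names an aligner or counter, so how reads of near-identical copies were split is not known. Of 26188 rows, 27 gene rows whose symbols had become dates were left out; they held at most 0.00424% of a library.

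Counts were rounded and tested with edgeR 4.0.16 (filterByExpr, TMM, robust quasi-likelihood F test, wash as a term) in R 4.3.3, with Benjamini-Hochberg adjustment over all rows and a threshold of 0.05; the SE is the log2 difference divided by the root of F. tRNA copies were also summed into 53 isoacceptors. DESeq2 1.42.0, RLE factors, library totals, no filter, the title style, hypotonic libraries alone and each library left out were alternatives; the title style in place of the wash was added after seeing the data. Class shares were compared by exact permutation. Each method was tested on simulated data. Named RNAs were, per class, up to 5 rises, 5 falls (at least 100 CPM in the higher part) and the 5 most abundant, and the 4 most abundant of each list; the text gives some of them, and others are named as chosen later. Members and lists were chosen with earlier results of these data known. Of 310 microRNA rows tested, 281 matched a RefSeq symbol. Labels for heads and tails share too few numbers to pair libraries.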

Additional observations from a re-analysis of the deposited data

Results flagged for a closer look

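Among the 4 cauda tails, 1 library stood far from the other 3 in 3 of 77 sets of values examined, where chance alone gives about 1 in 20. Hypotonic tail b held a repeat share of 0.0394%, below the other tails, and Mir429 at 303 CPM, above them. Hypotonic tail 1 held Mir143, a smooth muscle microRNA, at 8950.2 CPM, above the others.

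For 25 of 52 named RNAs the head to tail difference differed between cauda and testicular sperm by edgeR's interaction test (adjusted p under 0.05, log2 of cauda minus testis). Many of these RNAs were named for their rise or fall in the same cauda libraries, so the count is a description and supports nothing; over all 8410 rows 13.4% had a higher and 3.79% a lower difference in the cauda. The cauda libraries are those of the report, and the testicular libraries were all detergent washed and prefixed, so the wash term rests on the cauda libraries. Gene fragments that were high in cauda heads gave 6.08 for Plb1, 5.94 for Kif1a, 5.52 for Eif4g1, 5.52 for Trio, 5.25 for Ryr1, 4.76 for Per1 and 3.27 for Git1. Those high in cauda tails gave -3.62 for Smcp, -3.21 for Gm20594, -2.71 for Odf1, -2.70 for Gm3893 and -2.54 for Oaz3.

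At the 2 genic piRNA loci named for their rise in cauda heads the values were 4.72 for pi-Ankrd11.1, 4.65 for pi-Ankrd11.2 and 1.85 for pi-D730040F13Rik.1; over all 243 genic rows the median was -0.03, with 6 higher and 10 lower. Intergenic rows gave -2.76 for 1-qD-2017.1, -1.75 for 14-qC1-1010.2, -1.56 for 18-qE1-36451.1, -1.504 for 9-qC-31469.1 and -1.29 for 17-qA3.3-27363.1. Among microRNAs the values were 2.42 for Mir5103, -4.57 for Mir3535, 1.99 for Mir34c, 2.29 for Mir449a and 1.41 for Mir191. Library totals did not call Mir5103, Mir34c, Mir449a, Mir191 and pi-D730040F13Rik.1 (adjusted p = 0.11, 0.17, 0.089, 0.57 and 0.38).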

How the results depend on the processing

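Of the RNAs named, 48 were called, and 640 of their 710 values under the alternatives kept direction and call, 70 kept direction only and 0 reversed; 26 of the 48 kept their call in each alternative run. Library totals gave 892 higher and 1938 lower rows, 773 and 1927 in the isoacceptor fit, 523 and 858 for cauda against testis, and 0 and 1 for the wash interaction. With no filter the lower counts were 1270 and 1230 in the first 2 fits, and the wash interaction had 2 higher and 6 lower. For cauda against testis the lower count was 647 with DESeq2 and 617 with RLE factors. With single libraries left out the first fit ranged over 1002 to 1707 higher and 294 to 871 lower, the isoacceptor fit over 944 to 1641 and 331 to 872, and scaling to the RNA class over 736 to 1446 and 353 to 1177. The wash interaction ranged over 0 to 23 and 0 to 10, and cauda against testis over 234 to 1139 and 57 to 589. The wash interaction could not be fitted without the 1 detergent head or the 1 detergent tail. The rRNA share difference ranged over -1.63 to 4.12 percentage points and was negative only without hypotonic tail b. The cause of these changes was not tested. No paired analysis was possible because hypotonic heads and tails share only the number 1 and the letter a stands in different washes. With 3 and 4 libraries, heads mostly bare and tails mostly prefixed in title, part and title style are partly confounded, and levels under 3 reads are not resolved.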

Other observations

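Of 22 ribosomal protein mRNA rows Rps2 and Rpsa were higher in heads (1.03 and 1.17) and none lower (median 0.27), beside 22.8% of gene rows higher and 8.99% lower, and none of the 22 was called in all 3 fits. Of 10 rows of nuclear and other structured RNAs 4 (40%) were lower in heads in all 3 fits, beside 495 of 5927 gene rows. These were Vaultrc5 of the vault particle (-1.66), Rnu73b (-1.98), Rmrp and Gm20594. Rnu12, of the minor spliceosome, was higher (6.01, 5.97 and 4.21 CPM against 2.07, 0.435, 1.63 and 0.818 CPM, log2 3.03 ± 0.41 (SE), adjusted p = 8.0e-06), beside 745 of 5927 gene rows higher in all 3 fits. The nuclear RNAs Malat1 (-0.20, adjusted p = 0.79) and Neat1 (0.22, adjusted p = 0.69) did not pass with TMM, nor did Rpph1, Rnu11 and Lars2. Of 10 microRNAs known for their level along the epididymis Mir204 was lower (-1.79, median of the list -1.01), which is 10% beside 18.7% of microRNA rows. Library totals called all 10 lower, beside 193 of 310 microRNA rows. Of 4 muscle microRNA rows tested none was called with TMM and 4 were lower by library totals; their summed level was highest in hypotonic tail 1, at 9008 CPM, against 1871, 2502 and 2587 CPM in the other tails.

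The 495 gene rows lower in cauda heads in all 3 fits summed to 7202 to 8034 CPM in testicular heads and 8194 to 9713 CPM in testicular tails, against 753 to 1011 CPM in cauda heads. Since the rows were chosen for low levels in these cauda heads, the values are a description.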
